A study of Arabidopsis thaliana with 6 samples.

Results

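The genes described here are those whose transcript level stood apart in replicate 3 of both genotypes in a microarray study of young Arabidopsis thaliana leaves. A probe set was taken when its log2 value in replicate 3 lay at least 0.6 above, or at least 0.6 below, the mean of replicates 1 and 2, in the same direction in AN3-GR and in WT. A difference of 0.6 on the log2 scale is 1.52-fold. Of 21428 probe sets, each standing for 1 gene locus, 102 met the rule. They comprise 71 that were higher in replicate 3, called raised below, and 31 that were lower, called lowered. The genes were chosen by these same array values, so the sizes of the shifts are a description and carry no test.

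The AN3-GR plants carry a fusion of AN3, a transcriptional coactivator that promotes cell proliferation in leaves, with the hormone-binding domain of the glucocorticoid receptor, through which a steroid activates the fused protein. The WT plants were of the same accession, Columbia-0, without the fusion. Seedlings of both genotypes were 8 days old, kept in vitro in a cycle of 16 h light and 8 h dark, when they were placed on 5 µM dexamethasone for 8 h, and RNA came from their dissected leaves 1 and 2. There were 3 ATH1 arrays of each genotype, labelled as biological repeats 1 to 3, and no label says that a repeat number marks a shared sowing, harvest or day. The dexamethasone is common to all 6 arrays, AN3-GR plants without it were not analysed here, and the promoter that drives the fusion and the number of plants behind each array are not given in the labels.

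Several of the pathways represented among these genes are known to answer quickly to surroundings and handling. In Arabidopsis leaves, touch and wounding raise calcium-binding and ethylene-response-factor transcripts within minutes, and auxin induces the Aux/IAA, GH3 and SAUR families as part of its own feedback. Low temperature, strong light and sugar raise COR and anthocyanin genes, and many of these transcripts also cycle with the time of day.

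The raised genes had a median shift of 0.83 in AN3-GR and 0.82 in WT on the log2 scale, which is 1.78-fold and 1.77-fold. The lowered genes had a median shift of -0.89 in AN3-GR and -0.77 in WT. By direction, 0.331% of all probe sets were raised and 0.145% were lowered. In AN3-GR alone, 124 probe sets lay at least 0.6 above the mean of the other replicates, and the raised genes are 57.3% of them. WT alone gave 286, of which they are 24.8%. In the other direction 108 probe sets qualified in AN3-GR and 226 in WT, and the lowered genes make up 28.7% and 13.7% of these. Only 12 raised and 4 lowered genes exceeded a shift of 1 in both genotypes. Replicate 3 lay outside the values of replicates 1 and 2 in both genotypes for all 71 raised genes, where 19.9% of all probe sets lay above them, and for 30 of the 31 lowered genes, where 20.4% of all probe sets lay below. The exception is AT1G66100, which read 4.59 in replicate 3 of AN3-GR, against 4.53 and 6.34 in replicates 1 and 2. That replicate 3 lies outside the others is nearly fixed by the rule. A shift of 0.6 can leave it between them only where replicates 1 and 2 are far apart.

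**Figure D1:**
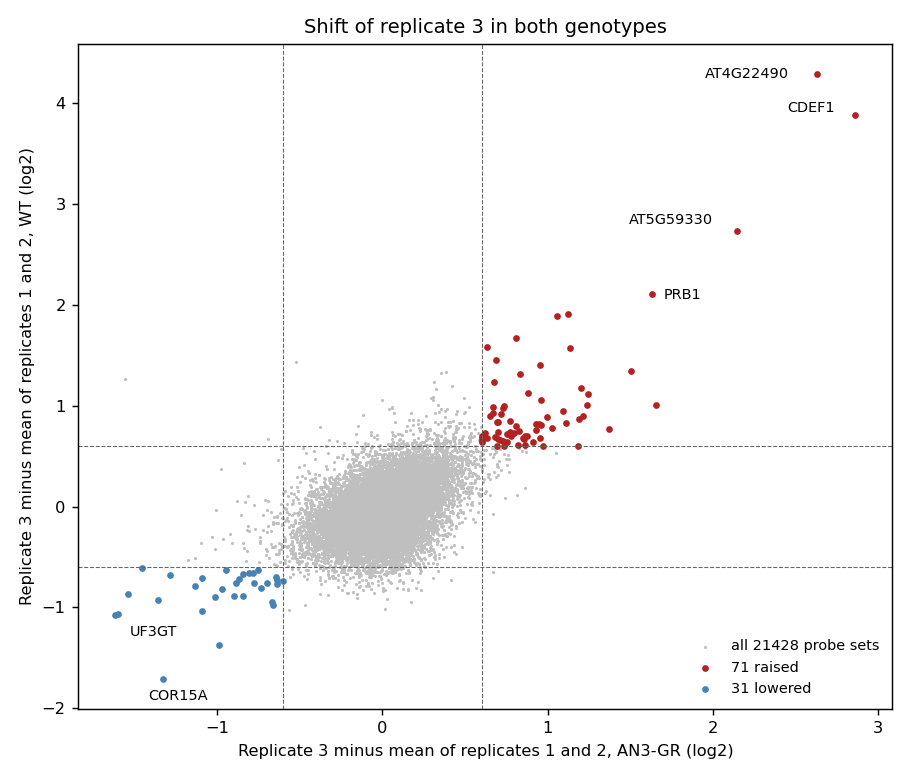
Log2 shift of replicate 3 from the mean of replicates 1 and 2 in AN3-GR (horizontal axis) and in WT (vertical axis), 1 point per probe set, with dashed lines at 0.6 and -0.6. The 71 raised genes (red) and 31 lowered genes (blue) fill opposite corners, with CDEF1 and AT4G22490 far above the rest.

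The genes were mostly well above the weakest signals of the arrays. Their median level was 7.36 for the raised and 7.22 for the lowered genes on the log2 scale, against 6.30 over all probe sets, and 2 raised and 1 lowered gene had a mean below the lower quartile of all probe sets, 4.06. AN3 (listed as GIF1) read 10.55, 10.56 and 10.02 in replicates 3, 1 and 2 of AN3-GR, against 7.61, 7.39 and 6.98 in WT, so every array goes with the genotype of its label. These values do not check the replicate numbers. The photosystem and light-harvesting probe sets, which should be strong in leaves, had a median level of 12.88, above the upper quartile of all probe sets, 8.04. The root markers had a median of 4.68, the shoot meristem and boundary markers 3.66 and the hypocotyl, cotyledon and seed-storage markers 3.58. Probe sets differ in how strongly they respond, so these levels do not measure amounts of one tissue against another. Array medians ran from 6.22 to 6.32. The lower quartile was 4.21 in replicate 1 and 4.13 in replicate 2 of WT, against 3.99 to 4.05 on the other 4 arrays.

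The most raised gene was CDEF1 by the smaller of its shifts in the genotypes. CDEF1, an esterase that degrades the cutin of the plant surface, read 8.49 in replicate 3 of AN3-GR, against 5.65 and 5.60 in replicates 1 and 2. In WT it read 8.84 in replicate 3, against 4.39 and 5.52. These are 7.27-fold in AN3-GR and 14.8-fold in WT, and no other replicate of either genotype came near replicate 3. AT4G22490 behaved likewise, at 9.09 in replicate 3 of AN3-GR, against 6.72 and 6.20, and at 9.45 in WT, against 4.36 and 5.97. Its neighbour among the measured loci, AT4G22510, was also raised, with shifts of 0.86 in AN3-GR and 0.70 in WT, from values that stayed at 4.27 or below. AT5G59330 read 6.74 in replicate 3 of AN3-GR, against 4.47 and 4.72, and 7.25 in WT, against 4.66 and 4.37. These 3 genes, CDEF1, AT4G22490 and AT5G59330, were the only ones with a shift above 2 in both genotypes. Of 32 measured cuticle and wax genes, a list that does not hold CDEF1, 0 were raised and 0 lowered. The list medians were 0.03 in AN3-GR and 0.14 in WT. Over all probe sets 0.331% were raised and 0.145% lowered, so a list of this size would often hold none. These shares apply to every list below, and the lists were written with earlier results of these data known. List medians, and counts of list genes above or below the mean of replicates 1 and 2, include the raised and lowered genes. Those genes lie on their side by the rule, so such counts are a description and not separate support.

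PRB1, a basic pathogenesis-related protein, read 5.74 in replicate 3 of AN3-GR, against 4.11 and 4.09 in replicates 1 and 2, and 6.09 in WT, against 3.98 and 3.96. The paired values of replicates 1 and 2 were almost the same and close to the lower quartile of the arrays. UPI, a serine protease inhibitor active against necrotrophs, read 4.60 in AN3-GR, against 3.32 and 3.61, and 5.26 in WT, against 3.36 and 4.02. CBP60G, a calmodulin-binding activator of salicylate synthesis, read 6.94 in AN3-GR, against 5.80 and 5.88, and 7.66 in WT, against 6.46 and 6.95. It is the only 1 of 20 measured salicylate defence genes among the raised genes, and the median shift of that list was 0.01 in AN3-GR and 0.08 in WT.

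Among lists of calcium and stress regulators, 1 of 18 touch and calcium genes, 3 of 17 early ERF and CBF factors, 1 of 23 stress WRKY, ZAT and MYB factors and 1 of 25 ethylene genes were raised. The share of raised genes over all probe sets was 0.331%. TCH3, a calmodulin-like protein first found as touch-induced, read 11.14 in replicate 3 of AN3-GR, against 9.93 and 9.86 in replicates 1 and 2, and 11.61 in WT, against 10.50 and 10.71. ATCTH, a tandem zinc finger protein, read 9.05 in AN3-GR, against 7.79 and 7.91, and 9.17 in WT, against 8.03 and 7.95. Replicates 1 and 2 of both genotypes thus lay within a narrow band for ATCTH, with replicate 3 well above it. The ethylene response factors ERF13, ERF104 and ERF105 (AT5G51190), transcription factors of rapid stress responses, were raised by 1.19, 0.87 and 1.18 in AN3-GR and by 0.87, 0.61 and 0.60 in WT. WRKY70, which balances salicylate and jasmonate responses, was raised by 0.97 in AN3-GR and 0.60 in WT. ACS6, a stress-induced enzyme of ethylene synthesis, was raised by 0.60 in AN3-GR and 0.65 in WT.

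For WRKY70 and ERF105, replicate 2 of WT stood nearer to replicate 3 than replicate 1 did, which was not so in AN3-GR for ERF105. WRKY70 read 9.24 in replicate 3 of WT, against 8.34 and 8.93 in replicates 1 and 2, whereas in AN3-GR it read 8.67, against 7.67 and 7.72. ERF105 read 9.39 in replicate 3 of WT, against 8.64 and 8.93, and 9.22 in AN3-GR, against 8.07 and 8.00. The lists they belong to shifted in the same direction, with smaller medians in WT, a difference that was not tested. Of 17 measured early ERF and CBF factors, 12 lay above the mean of replicates 1 and 2 in both genotypes and 0 below it in both, with list medians of 0.36 in AN3-GR and 0.11 in WT. Over all probe sets 30.8% lay above in both genotypes and 35.7% below, and the medians were 0.00 and -0.03. The touch and calcium list had 12 of 18 above and medians of 0.32 and 0.17, and the stress WRKY, ZAT and MYB list had 14 of 23 above and medians of 0.33 and 0.13. Each of these counts includes the raised genes of its list, which lie above by the rule. Next to TCH3, the touch gene TCH2 shifted by 0.47 in AN3-GR and 0.20 in WT, and the kinase gene MPK3 by 0.58 and 0.42, both below the threshold.

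Of 30 measured auxin-response genes, 4 were raised and 0 lowered, against 0.331% and 0.145% of all probe sets. IAA2, an Aux/IAA repressor of auxin signalling, read 8.49 in replicate 3 of AN3-GR, against 7.57 and 7.51 in replicates 1 and 2, and 8.94 in WT, against 7.50 and 7.58. GH3.3, an enzyme that conjugates auxin to amino acids, read 8.33 in AN3-GR, against 7.84 and 7.17, and 8.35 in WT, against 7.37 and 6.69. Replicate 3 was the highest for both genes in both genotypes, although GH3.3 also differed by 0.68 between replicates 1 and 2. The related GH3.5 (WES1) was raised by 0.67 in AN3-GR and 0.93 in WT, and HAT2, an auxin-induced homeodomain factor, by 0.61 and 0.70. The list had a median shift of 0.16 in AN3-GR and 0.13 in WT. IAA1, the nearest to the rule among the others, shifted by 0.46 and 0.78.

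Of 57 measured loci named SAUR, many of which encode small auxin-induced proteins of cell expansion, 3 were raised and 1 was lowered. The shares over all probe sets were 0.331% and 0.145%. SAUR68 read 6.48 in replicate 3 of AN3-GR, against 5.41 and 5.43 in replicates 1 and 2, and 7.77 in WT, against 5.88 and 5.88. SAUR66 (AT1G29500) had shifts of 0.81 in AN3-GR and 1.67 in WT, and SAUR63 of 0.63 and 1.58. SAUR66 and SAUR68 are adjacent measured loci on chromosome 1, and SAUR63 lies 5 measured loci away, so probes that match several members of this near-identical cluster cannot be told apart from separate genes. SAUR6 (AT2G21210), on another chromosome, went the other way, with 6.70 in replicate 3 of AN3-GR, against 7.76 and 8.53, and 7.32 in WT, against 7.74 and 8.12.

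Of 14 measured hypoxia core genes and 23 sugar starvation and dark-induced genes, 2 of each list were raised, against 0.331% of all probe sets. LBD41, a transcriptional regulator of the core hypoxia response, read 7.36 in replicate 3 of AN3-GR, against 6.43 and 5.80 in replicates 1 and 2, and 6.88 in WT, against 5.76 and 5.77. PCO1 (AT5G15120), a plant cysteine oxidase that marks factors for oxygen-dependent breakdown, was raised by 0.77 in AN3-GR and 0.85 in WT. The hypoxia list had medians of 0.14 in AN3-GR and 0.06 in WT. ADH1, the alcohol dehydrogenase of fermentation, shifted by 0.42 and 0.41, and PDC1, its partner enzyme, by 0.09 and 0.01. The dormancy-associated genes DYL1 (DRM1) and DRM2 (AT2G33830) were raised by 0.68 and 0.69 in AN3-GR and by 0.69 and 0.60 in WT. DRM2 meets the rule narrowly, since replicate 3 of AN3-GR, 8.59, was little above replicate 2, 8.44, and well above replicate 1, 7.36. In the list of sugar starvation and dark-induced genes 18 of 23, its 2 raised genes included, lay above in both genotypes, with medians of 0.15 and 0.15. Its best known darkness marker, ASN1, an asparagine synthetase, was at -0.24 in AN3-GR and -0.29 in WT.

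The other raised list members were JAZ1, a repressor of jasmonate signalling, at 0.62 in AN3-GR and 0.73 in WT, CRF3, a cytokinin response factor, at 0.78 and 0.71, and SAG21, a senescence-associated protein, at 0.60 and 0.70. Outside the lists, AT3G15450 read 11.81 in replicate 3 of AN3-GR, against 10.25 and 10.06 in replicates 1 and 2, and 11.56 in WT, against 10.56 and 10.54. AT4G10270 read 6.81 in AN3-GR, against 5.41 and 5.20, and 6.23 in WT, against 4.80 and 4.98. For both loci the groups of replicate 3 and of the other replicates are separate in each genotype. AT5G64110 had shifts of 1.12 in AN3-GR and 1.91 in WT, and AT5G01870 of 0.96 and 1.05. The rest of the raised genes lay between 0.60 and 1.37 in AN3-GR and between 0.61 and 1.45 in WT. Among them are J8 and DJC24 (AT2G17880), proteins of the DnaJ chaperone family, HTR11, a histone H3-related protein, BT5, a BTB and TAZ domain protein, BXL1, a cell wall xylosidase, and ATPMEPCRB, a pectin methylesterase.

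**Figure D2:**
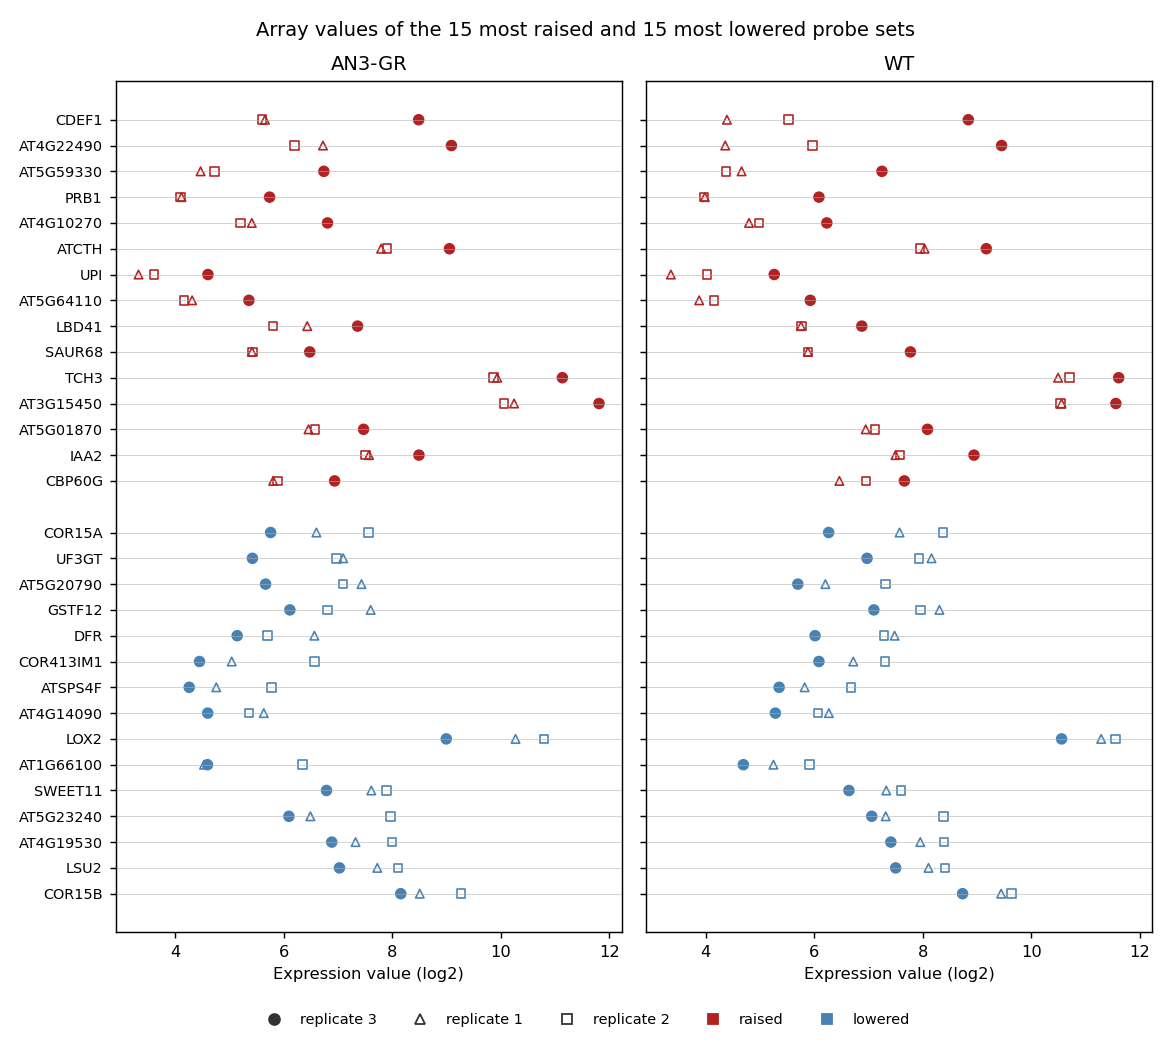
Log2 value on every array for the 15 most raised (red) and 15 most lowered (blue) genes, AN3-GR on the left and WT on the right. Filled circles are replicate 3, open triangles replicate 1 and open squares replicate 2. Replicate 3 lies outside the open symbols in both panels for every gene drawn except AT1G66100 in AN3-GR.

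The list with the most lowered genes was that of flavonoid and anthocyanin synthesis, with 5 of 21 measured genes, against 0.145% of all probe sets. DFR, the dihydroflavonol reductase at the entry to anthocyanins, read 5.14 in replicate 3 of AN3-GR, against 6.56 and 5.70 in replicates 1 and 2, and 6.01 in WT, against 7.48 and 7.28. UF3GT, which adds a sugar to anthocyanins, read 5.42 in AN3-GR, against 7.09 and 6.97, and 6.97 in WT, against 8.16 and 7.93. Both genes were lowest in replicate 3 in each genotype. GSTF12, the TT19 protein needed to carry anthocyanins to the vacuole, read 6.11 in AN3-GR, against 7.60 and 6.80, and 7.10 in WT, against 8.31 and 7.96. PAP1 (MYB75), the MYB factor that switches these genes on, read 5.48 in AN3-GR, against 6.41 and 6.24, and 6.42 in WT, against 7.09 and 7.09. AT4G14090, also in the pathway list, was lowered, with shifts of -0.90 in AN3-GR and -0.89 in WT.

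Of the 21 measured genes of the flavonoid and anthocyanin list, 19 lay below the mean of replicates 1 and 2 in both genotypes, against 35.7% of all probe sets, and the list medians were -0.32 in AN3-GR and -0.42 in WT. The 19 include the 5 lowered genes, which lie below by the rule. The exceptions were CHI, chalcone isomerase, at 0.01 in AN3-GR and 0.09 in WT, and FLS1, the flavonol synthase, at 0.13 and 0.20. Among the early steps, CHS, chalcone synthase at the head of the pathway, was at -0.25 in AN3-GR and -0.13 in WT, and F3H, flavanone hydroxylase, at -0.46 and -0.40. The late-acting 5MAT, which adds a malonyl group to anthocyanins, was at -0.57 and -1.02 and missed the rule in AN3-GR alone.

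COR15A had the largest lowered shift in WT, and the largest by the smaller of the genotypes' shifts, although 5 lowered genes had larger ones in AN3-GR. This cold-induced protein, which protects chloroplast membranes during freezing, read 5.76 in replicate 3 of AN3-GR, against 6.60 and 7.56 in replicates 1 and 2, and 6.27 in WT, against 7.57 and 8.37. Its adjacent paralogue COR15B was lowered by less, with 8.16 in AN3-GR, against 8.51 and 9.27, and 8.73 in WT, against 9.45 and 9.64. COR413IM1, an inner envelope protein of the chloroplast, read 4.45 in AN3-GR, against 5.04 and 6.57, and 6.09 in WT, against 6.72 and 7.30. The 3 genes share a pattern in which replicate 2 was highest, replicate 1 between and replicate 3 lowest in both genotypes. Of the 14 measured cold-regulated genes, 7 lay below the mean of replicates 1 and 2 in both genotypes and 5 above, and 10 were higher in replicate 2 than in replicate 1 in both. The list medians were -0.08 in AN3-GR and -0.00 in WT. COR47, a dehydrin, was at 0.19 in AN3-GR and 0.58 in WT, and the upstream factors CBF1, CBF2 and CBF3 were at -0.02, 0.17 and 0.08 in AN3-GR and at 0.11, -0.01 and -0.07 in WT.

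Of 22 measured jasmonate genes, 2 were lowered and 1 was raised, against 0.145% and 0.331% of all probe sets. LOX2, the chloroplast lipoxygenase of jasmonate synthesis, read 8.99 in replicate 3 of AN3-GR, against 10.27 and 10.80 in replicates 1 and 2, and 10.56 in WT, against 11.29 and 11.56. CORI3, a coronatine-induced lyase, read 5.18 in AN3-GR, against 5.96 and 6.58, and 6.97 in WT, against 7.53 and 7.83. Replicate 3 was lowest in each genotype for both, in contrast to the repressor gene JAZ1. AOS, the enzyme after LOX2 in jasmonate synthesis, was at -0.52 and -0.32, AOC3, a later one, at 0.45 and 0.77, and the list had medians of 0.02 and 0.04, with 9 genes above and 7 below in both genotypes. LSU2, a sulfur-starvation protein, read 7.03 in AN3-GR, against 7.72 and 8.10, and 7.50 in WT, against 8.11 and 8.41. GGCT2;1 (AT5G26220), which degrades glutathione, read 6.0 in AN3-GR, against 6.33 and 7.23, and 6.77 in WT, against 7.24 and 7.63. Of 19 measured sulfur genes, 16 lay below in both genotypes, the lowered ones included, with medians of -0.25 in AN3-GR and -0.16 in WT.

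CYP79B3 and CYP83B1, successive enzymes from tryptophan to indole glucosinolates, had shifts of -0.60 and -0.64 in AN3-GR and of -0.74 and -0.70 in WT. They are 2 of 17 measured indole glucosinolate and camalexin genes, whose medians were -0.12 and -0.08. CYP83A1, the matching enzyme for methionine-derived glucosinolates, was at -0.67 and -0.94. The methionine-derived list as a whole did not move alike in the genotypes, with medians of 0.01 in AN3-GR and -0.42 in WT, a difference that was not tested. SWEET11, a sucrose exporter of leaf veins, read 6.79 in AN3-GR, against 7.61 and 7.90, and 6.64 in WT, against 7.33 and 7.60. ATSPS4F, a sucrose phosphate synthase, read 4.26 in AN3-GR, against 4.75 and 5.78, and 5.35 in WT, against 5.82 and 6.68. PRR3, a clock-associated pseudo-response regulator, was lowered by the rule with shifts of -0.87 and -0.72, while the clock list of 27 had medians of -0.07 and -0.12 and 16 genes below in both genotypes. DJC76 (AT5G23240), a DnaJ protein, read 6.09 in AN3-GR, against 6.49 and 7.96, and 7.06 in WT, against 7.32 and 8.38. AT5G20790 read 5.66 in AN3-GR, against 7.43 and 7.09, and 5.70 in WT, against 6.21 and 7.31. Replicate 2 set much of the size for several of these genes. Without it, the AN3-GR shift was -0.40 for DJC76, -0.34 for GGCT2;1, -0.50 for ATSPS4F, -0.59 for COR413IM1 and -0.35 for COR15B, and the WT shift was -0.26 for DJC76, -0.51 for AT5G20790 and -0.47 for ATSPS4F. AT4G19530 had shifts of -0.78 in AN3-GR and -0.76 in WT. The remaining lowered genes lay between -1.29 and -0.64 in AN3-GR and between -0.98 and -0.63 in WT, among them SQP1, a squalene epoxidase-like protein, CSLE1, a cellulose synthase-like protein, ENP (NPY1), a protein of auxin-dependent organ formation, and GUT15, the single non-coding RNA among the 102.

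**Figure D3:**
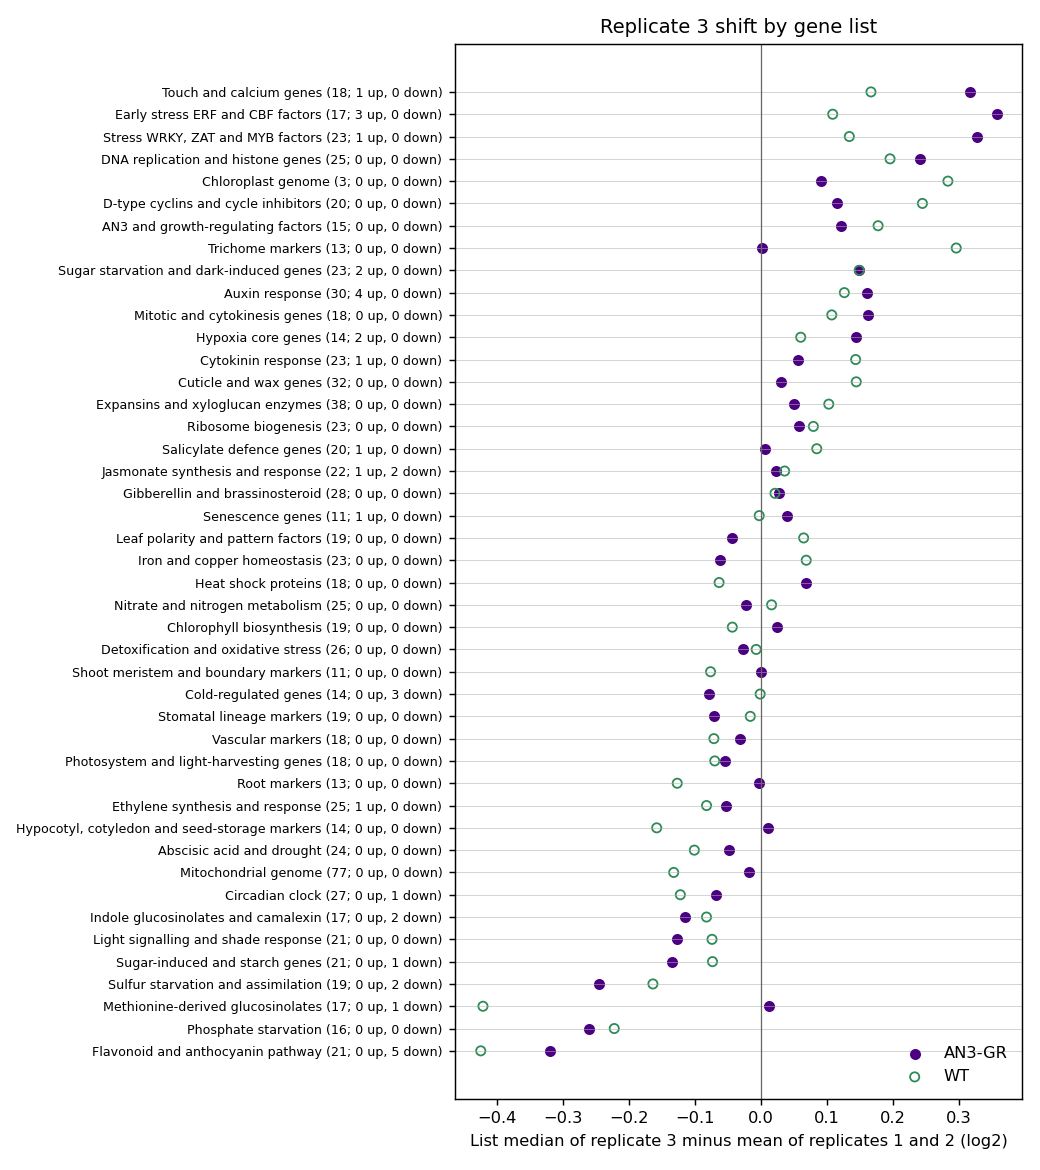
Median log2 shift of replicate 3 from the mean of replicates 1 and 2 for each gene list, in AN3-GR (filled) and WT (open), with the number of measured genes and of raised and lowered genes beside each name. The flavonoid and anthocyanin list lies at -0.32 in AN3-GR and -0.42 in WT, and the early ERF and CBF list at 0.36 and 0.11.

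In all, 35 of the 102 genes belong to a list, where the lists hold 933 of all 21428 probe sets. The lists were written with earlier results of these data known, so these shares are not a like comparison. The lists of markers of other cell types and organs (root, shoot meristem and boundary, seed storage, stomatal lineage, trichome and vascular) held 0 raised and 0 lowered genes among 88 measured entries. Over all probe sets 0.476% were raised or lowered, so few or none would fall among 88 entries by that share alone. The median shifts of these marker lists lay between -0.07 and 0.01 in AN3-GR and between -0.16 and 0.30 in WT, with the trichome list highest in WT. Whether the make-up of the dissected tissue differed between replicates was not tested further, and in bulk RNA fewer cells of a type and less RNA per cell cannot be told apart. A part of the genes lie close together on the chromosomes. With at most 5 measured loci between them, 8 pairs were found, 4 of them adjacent and 6 of them in the same direction. They include pairs of the SAUR cluster, where probes may match several members. How many such pairs another set of 102 measured loci would hold was not tested. The adjacent loci AT1G66090 and AT1G66100 went opposite ways, raised and lowered, and COR413IM1, which was lowered, lies 1 measured locus from the raised SAUR63.

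The threshold divides genes of like behaviour. Just inside it, APK2A, DRM2 and ACS6 had a smaller shift of 0.60, and just outside it lay AT5G46710, AT5G11650 and SIB1, also at 0.60. SIB1, a sigma-factor-binding defence protein, had shifts of 0.60 in AN3-GR, under the threshold before rounding, and 0.79 in WT. Among the lowered genes, CYP79B3, SAUR6 and ENP lay just inside at -0.60, -0.61 and -0.63, and AT3G60320, AT5G65480 and AT2G25450 just outside at -0.59, -0.59 and -0.57.

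The difference between replicates 1 and 2 was not used by the rule and shows how the same genes varied otherwise. Replicate 2 lay above replicate 1 in both genotypes for 22 of the 31 lowered genes and for 25 of the 71 raised genes, where all probe sets gave 29.9%. A difference of at least 0.3 in that direction in both genotypes was found for 15 lowered and 4 raised genes, against 1.98% of all probe sets. The median of replicate 2 minus replicate 1 was 0.43 in AN3-GR and 0.31 in WT for the lowered genes, and -0.07 and 0.14 for the raised ones. These differences were not tested. The opposite direction, replicate 2 below replicate 1 in both genotypes, was seen for 5 lowered and 22 raised genes, against 25.7% of all probe sets, and by at least 0.3 for 1 lowered and 5 raised genes, against 0.625%. By at least 0.3, the raised genes thus exceeded the share of all probe sets in both directions, at 5.63% above and 7.04% below. The rule selects genes that vary between replicates, so these shares are not a like comparison.

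The lowered genes differed among themselves in this measure. COR15A differed by 0.96 in AN3-GR and 0.80 in WT between replicates 2 and 1, COR413IM1 by 1.53 and 0.58, and DJC76 by 1.47 and 1.06. ATSPS4F, PRR3, CORI3, LSU2 and CYP83A1 were also higher in replicate 2, by 0.38 to 1.02 in AN3-GR and by 0.30 to 0.86 in WT. Of the 5 lowered genes of the anthocyanin list, 4 were lower in replicate 2 in both genotypes. GSTF12 was at -0.80 in AN3-GR and -0.35 in WT, DFR at -0.87 and -0.20, AT4G14090 at -0.28 and -0.20, and UF3GT at -0.12 and -0.23, while PAP1 was at -0.17 in AN3-GR and 0.00 in WT. GUT15, outside the list, was also negative in both, at -0.15 and -0.10, and CYP79B3 was mixed, at -0.16 and 0.49. Among the raised genes, GH3.3, GH3.5, PCO1 and RTFL8, a small ROTUNDIFOLIA-like protein, were lower in replicate 2 than in replicate 1 by at least 0.3 in both genotypes, and ERF104 and DRM2 were higher. CDEF1 and AT4G22490, the most raised genes, differed between replicates 2 and 1 in WT by 1.13 and 1.61 but by -0.05 and -0.52 in AN3-GR, so their shifts in WT rest on less even values.

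**Figure D4:**
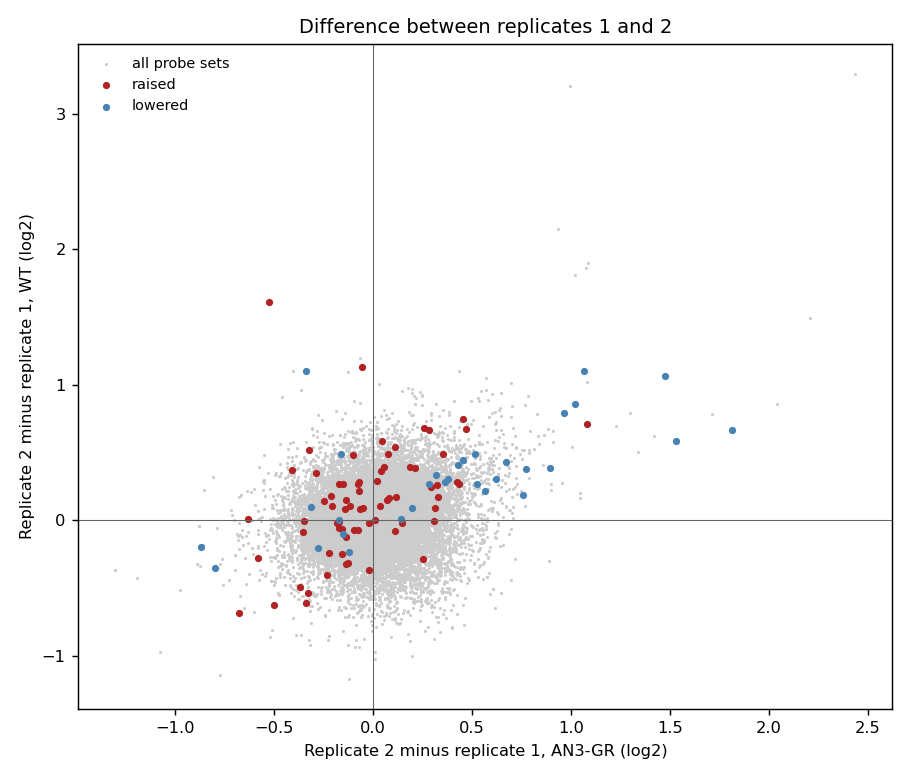
Log2 difference of replicate 2 minus replicate 1 in AN3-GR (horizontal axis) and in WT (vertical axis), 1 point per probe set. The lowered genes (blue) lie mainly at the upper right, 22 of 31 being positive in both genotypes, while the raised genes (red) surround the origin.

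The mean difference between the genotypes was also not used to choose the genes, although their spread within a genotype was. With limma on all 6 arrays and Benjamini-Hochberg adjustment over all probe sets, 120 probe sets (0.56%) were higher and 49 (0.229%) lower in AN3-GR at an adjusted p under 0.05. None of the 102 genes was among them. The smallest adjusted p of the 102 in limma was 0.0511, for JAZ1. With the replicate number as a block in the same limma fit, which removes the shift of replicate 3 that the genotypes share, 770 probe sets (3.59%) were higher and 650 (3.03%) lower. Of the raised genes 4 were then higher and 23 lower, and of the lowered genes 1 was higher and 21 lower. The median standard error of the 102 genes was 0.297 without the block and 0.0947 with it, against 0.112 and 0.0869 over all probe sets. Both the spread that the block removes and the spread that remains entered the rule, so these adjusted p-values are not independent of the choice of genes.

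The direction of the difference can be read from the arrays alone. The AN3-GR mean lay below the WT mean for 50 of 71 raised and 27 of 31 lowered genes, where 54.2% of all probe sets did so, and above it for 21 raised and 4 lowered genes, against 45.8%. It lay at least 0.3 below for 35 raised and 22 lowered genes, against 7.37% of all probe sets. It lay at least 0.3 above for 12 raised and 3 lowered genes, against 7.84%. The rule selects for spread within a genotype. The median standard error of the chosen genes was 0.297 without the block, against 0.112 over all probe sets. Such spread makes differences of at least 0.3 more frequent in both directions, so these shares are not a like comparison. Among the raised and among the lowered genes, more lay below than above by this measure. AN3-GR was below WT at each of the 3 replicate numbers for 40 raised and 24 lowered genes, against 23.6% of all probe sets. The median difference of AN3-GR minus WT was -0.29 for the raised and -0.60 for the lowered genes, against -0.02 over all probe sets. Every AN3-GR array lay below every WT array for 4 genes, the raised AT1G66090 and JAZ1 and the lowered CORI3 and PAP1, against 9.4% of all probe sets, and above for 1, BXL1, against 12.8%. A shift of at least 0.6 in replicate 3 of both genotypes widens both ranges, so the rule itself makes such separation rarer.

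CORI3 averaged 5.91 ± 0.70 in AN3-GR and 7.44 ± 0.44 in WT (SD, n = 3 each). Its log2 difference of -1.54 had a limma adjusted p of 0.0673 without the block and 0.0093 with it. JAZ1 averaged 6.84 ± 0.41 in AN3-GR and 8.15 ± 0.46 in WT, a difference of -1.31 with a limma adjusted p of 0.0511 without the block and 0.0185 with it. Although their replicate 3 shifts are of opposite sign, CORI3 and JAZ1 both had lower means in AN3-GR. Their limma adjusted p was under 0.05 with the block and over it without. The rule chose genes whose shared replicate 3 shift the block removes, so it favours the fit with the block. The other genes among the 10 of smallest p were ATSPS4F at -1.02 (SE 0.0815 with the block), CYP83A1 at -0.93, the anthocyanin genes UF3GT at -1.19, GSTF12 at -0.95, PAP1 at -0.83 and AT4G14090 at -0.68, the pectin methylesterase gene ATPMEPCRB at -0.80, and AT1G66090 at -0.91. All 8 had a limma adjusted p of 0.0100 to 0.0185 with the block, and of 0.147 to 0.275 without it. Without replicate 3 of AN3-GR, the differences of the anthocyanin genes were smaller, at -0.65 for UF3GT, -0.59 for GSTF12, -0.55 for PAP1 and -0.38 for AT4G14090. Without replicate 3 of WT, the same genes were at -1.55, -1.29, -1.05 and -0.97. With both arrays of replicate 3 left out, they were at -1.01, -0.93, -0.77 and -0.68. Replicate 3 was low in both genotypes by the rule, so leaving out 1 of these arrays moves the difference. AT1G66090 was at -0.58 without replicate 3 of WT, and ATSPS4F at -0.66 without replicate 2 of WT.

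With the block, 5 genes were higher in AN3-GR. BXL1 averaged 8.32 ± 0.48 in AN3-GR and 7.46 ± 0.45 in WT (SD, n = 3 each), a difference of 0.86 with a limma adjusted p of 0.0141 with the block and 0.148 without it. PCO1 differed by 0.68, HMGB6, a high-mobility-group DNA-binding protein, by 0.48, AT4G10270 by 0.47 and GUT15 by 0.37, with limma adjusted p-values of 0.0188, 0.0274, 0.0465 and 0.0435 with the block. Single arrays moved several of these differences. Without replicate 3 of WT, GUT15 was at 0.12, HMGB6 at 0.76 and AT4G10270 at 0.92, and without replicate 3 of AN3-GR they were at 0.58, 0.25 and -0.032, and PCO1 at 0.42. Without the block, 1 array decided some calls. Leaving out replicate 3 of WT gave 6 lower genes (JAZ1, PAP1, CB5-C, CYP83A1, CORI3 and DFR) and 1 higher (BXL1). Over all probe sets that setting gave 311 lower and 468 higher. Leaving out both arrays of replicate 3 gave 4 lower (JAZ1, CORI3, UF3GT and ATPMEPCRB), against 26 lower and 48 higher over all probe sets. Leaving out replicate 3 removes spread that the rule selected for, so such calls follow in part from the choice of genes.

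**Figure D5:**
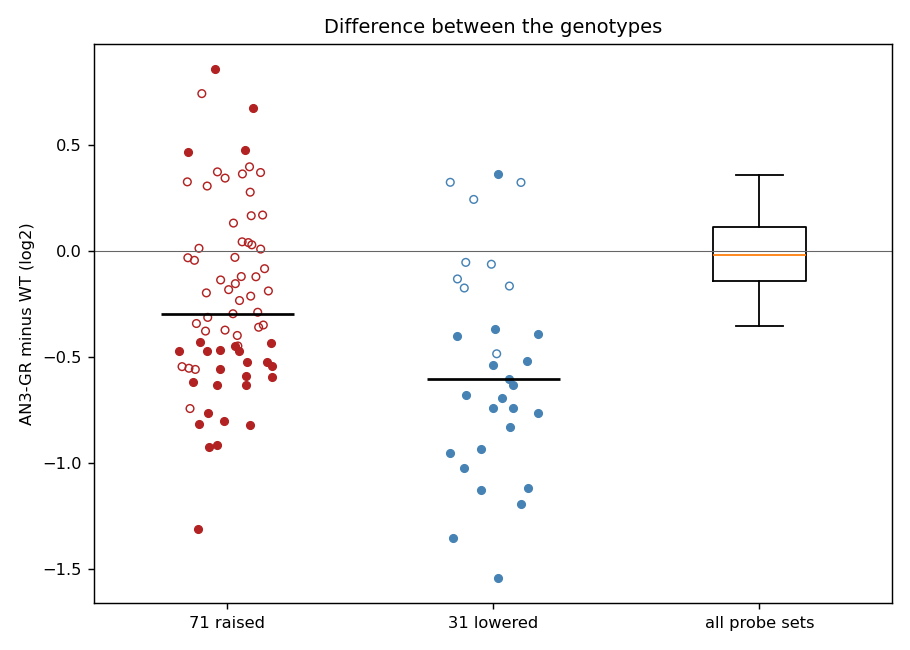
Log2 difference of the AN3-GR mean minus the WT mean for the raised genes, the lowered genes and all probe sets. Each circle is 1 gene, filled where the limma adjusted p with the replicate block is under 0.05, black lines are medians (-0.29 and -0.60), and the box shows the quartiles of all probe sets with whiskers from the 5th to the 95th percentile.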

How the data were processed

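RNA of 3 AN3-GR and 3 WT samples was measured on ATH1 arrays. The values the authors deposited are on the log2 scale. RMA and limma are the tools in the submitters' processing notes, which give no versions. RMA makes all arrays follow 1 distribution and shrinks differences between weak signals. The probe grouping and genome build are not given in the sources used here. Values were used as deposited, with 0 sample columns left unused.

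The genes and the 44 gene lists (952 entries, 933 distinct measured loci, 15 entries dropped as unresolved) were chosen with earlier results of these data known. Names come from the RefSeq table of TAIR10.1, which matched all 102 genes and gave 57 of them a symbol. None of the 102 shared its values with another probe set. Genes were named when among the 15 most raised or most lowered by the smaller of the genotypes' shifts, in a list, among the 10 of smallest p in each direction against WT, or beside the threshold. Any others named were picked with their values known.

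AN3-GR was set against WT in limma 3.58.1 under R 4.3.3 (lmFit and eBayes, two-sided, Benjamini-Hochberg over 21428 probe sets), tested on simulated data. Deviations from the group mean correlated at 0.161, 0.416 and 0.494 between arrays of the same replicate number 1, 2 and 3. Each exceeded a bound of 0.1, although replicate 3 is what the genes were selected on. The main fit did not pair the arrays, and the replicate number entered as a block only in the alternative fit. The number of arrays limits the precision, and p-values measure only the spread between these samples. Alternatives were other scaling, thresholds, filters, variance models, the block and leaving out arrays.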

Additional observations from a re-analysis of the deposited data

Results flagged for a closer look

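Replicate 3 moved in opposite directions in the genotypes, by at least 0.6 in each, for 3 probe sets, and the difference was not tested. AT1G47400 had a shift of -1.56 in AN3-GR and 1.27 in WT. It read 4.62 in replicate 3 of AN3-GR, against 4.96 and 7.40 in replicates 1 and 2, and 8.29 in WT, against 5.38 and 8.67, so replicate 2 was the highest in both genotypes. BHLH101, a transcription factor of the iron deficiency response, had a shift of -0.69 in AN3-GR and 0.68 in WT. It read 3.27 in AN3-GR, against 3.49 and 4.42, and 5.72 in WT, against 3.97 and 6.12, again with replicate 2 highest in both. AT2G24920, a pseudogene in the gene table, had a shift of 0.67 in AN3-GR and -0.65 in WT. It read 5.28 in AN3-GR, against 4.62 and 4.60, and 4.92 in WT, against 5.75 and 5.40.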

How the results depend on the processing

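The raised and lowered counts, 71 and 31, became 127 and 60 at a threshold of 0.5, 12 and 4 at a threshold of 1, and 39 and 9 when replicate 3 had to lie 0.6 outside the range of the others. Without the weakest 50% of probe sets 44 raised genes were left. Leaving out 1 array gave 61 to 80 raised and 20 to 47 lowered genes, with 47 without WT replicate 1 and 20 without WT replicate 2. The AN3-GR shift of AT1G66100 ran from -1.75 to 0.064 when 1 array was left out, positive without AN3-GR replicate 2, and AN3-GR minus WT of AT4G10270 from -0.032 to 0.92, negative without AN3-GR replicate 3. Between the genotypes, 120 probe sets higher and 49 lower became 770 and 650 with the replicate block, 392 and 172 without the weakest 50%, 380 and 178 with an intensity trend and robust variance, and 48 and 26 without either replicate 3. Another quantile normalization gave 101 lower, centring on medians 69 higher, and leaving out the weakest 25% 74 lower. Leaving out 1 array gave 5 to 468 higher and 4 to 311 lower. Among the 102 genes, 0 higher and 0 lower became 5 and 44 with the block. The quantile, centred and trend settings gave 1 lower (JAZ1 in each), leaving out the weakest 50% gave 2, leaving out both replicates 3 gave 4, and leaving out 1 array gave 0 to 1 higher and 0 to 6 lower. Weak signals limit values near the lower quartile of the arrays.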

Other observations

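Several lists without a raised or lowered gene still lay mostly to 1 side in replicate 3 of both genotypes. Of 25 measured DNA replication and histone genes, 21 lay above the mean of replicates 1 and 2 in both, with medians of 0.24 in AN3-GR and 0.20 in WT, and 13 of 18 mitotic and cytokinesis genes did so, with medians of 0.16 and 0.11. Of 16 phosphate starvation genes, 13 lay below in both, with medians of -0.26 and -0.22. SPX1, a phosphate sensor, was at -1.03 in AN3-GR and -0.30 in WT, and MGD3, a galactolipid synthase, at -0.62 and -0.54. All probe sets gave 30.8% above and 35.7% below.

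Between replicates 1 and 2, all 18 photosystem and light-harvesting genes were higher in replicate 2 in both genotypes, by medians of 0.28 in AN3-GR and 0.17 in WT. Of 23 ribosome biogenesis genes, 19 were lower in replicate 2 in both, with medians of -0.19 and -0.11. Over all probe sets 29.9% were higher and 25.7% lower in replicate 2 in both genotypes.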
